A study of Homo sapiens with 12 samples.

Results

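snoRNA host genes were examined here as a group of 10 noncoding genes, SNHG1, SNHG3, SNHG5, SNHG6, SNHG7, SNHG8, SNHG12, SNHG15, SNHG16 and GAS5, taken by name from the 57353 gene names of the count table. All 10 had counts in every library and were among the 12998 genes that passed the filter on low counts and were tested. The counts came from poly-A-selected RNA-seq of MOLM-13, an acute myeloid leukemia (AML) cell line that carries a FLT3 internal tandem duplication (FLT3-ITD) and is labelled WT for genotype. Cells received vehicle (DMSO) or 3 nM quizartinib (AC220), an inhibitor of the FLT3 receptor tyrosine kinase, for 15 hr. They were kept either in RPMI medium or in hBMSC-CM, RPMI mixed with medium conditioned by HS-5, a human bone marrow stromal cell line, and each of the 4 groups had 3 libraries. One cell line and 1 stromal line stand for AML cells and bone marrow here. The study describes its replicates as biological, and the labels do not say whether they were separate cultures, so p-values measure the spread between these libraries.

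Depth was 19966546 to 31546104 counts per library. Of 10 AML cell markers 9 passed the filter, with CD34 at or near 0, and their summed level ranged from 1170 to 1224 CPM (counts scaled to library size with TMM factors) with vehicle in RPMI, 1795 to 1808 with quizartinib in RPMI, 1441 to 1473 with vehicle in hBMSC-CM and 2148 to 2313 with quizartinib in hBMSC-CM. Of 10 stromal markers, COL3A1, LUM, DCN, THY1 and POSTN had no count in any library, and the list summed to 1.27 to 1.75, 5.51 to 6.15, 1.04 to 1.68 and 2.06 to 2.28 CPM in the same order, with COL1A1 at means of 0.18, 4.61, 0.22 and 0.99 CPM. Of the 9 AML markers tested, quizartinib in RPMI raised 5 and lowered 4, where 40.1% of all genes tested were called higher and 39.2% lower. With vehicle, hBMSC-CM raised 3 and lowered 1, where 16.6% and 15.5% of all genes were called. These markers thus move with quizartinib and with the medium, and their part in the results was not tested. The levels are shares of polyadenylated RNA, so that less RNA in each cell and fewer cells could not be told apart.

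Small nucleolar RNAs (snoRNAs) guide chemical modification of ribosomal RNA, and some take part in its cleavage. In human cells most are cut out of the introns of a host gene. Box C/D snoRNAs guide 2′-O-methylation and carry a C box and a D box, while box H/ACA snoRNAs guide pseudouridylation and end in an ACA box. The spliced exons of noncoding hosts are often short-lived, being degraded by nonsense-mediated decay when ribosomes engage them, and many hosts start with a tract of pyrimidines, the 5′ terminal oligopyrimidine (TOP) motif of ribosomal protein genes. GAS5 was first isolated as a transcript that accumulates in growth-arrested cells, and several SNHG transcripts are studied as abundant RNAs of tumor cells.

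RefSeq places 36 snoRNA genes within the 10 hosts, of which 25 are box C/D, 10 are box H/ACA and 1 has no box in its name, and 34 lie in introns of the host's canonical GENCODE transcript. GAS5 holds 11 of them, SNHG1 9, SNHG12 4, SNHG16 3, SNHG3, SNHG5 and SNHG7 2 each, and SNHG6, SNHG8 and SNHG15 1 each. The sequences below, read from the hg38 genome at the RefSeq positions and written 5′ to 3′, show the product of a host of each type. SNORD44 of GAS5 (chr1:173865968-173866028, minus strand), SNORD27 of SNHG1 (chr11:62855012-62855083, minus strand) and SNORD1B of SNHG16 (chr17:76561108-76561193, plus strand) are box C/D, and capitals mark the C box letters TGATGA and the D box CTGA. SNORA73B of SNHG3 (chr1:28508558-28508762, plus strand) is box H/ACA with the ACA box in capitals. SNORD99 of SNHG12 (chr1:28578743-28578822, minus strand) has the D box in capitals. SNORA73B and SNORD99 are shown because they could be measured beside their hosts.
SNORD44: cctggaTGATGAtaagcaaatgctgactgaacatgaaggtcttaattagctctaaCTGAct
SNORD27: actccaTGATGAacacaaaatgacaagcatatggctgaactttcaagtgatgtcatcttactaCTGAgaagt
SNORD1B: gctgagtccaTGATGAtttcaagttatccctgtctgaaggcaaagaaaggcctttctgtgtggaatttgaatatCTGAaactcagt
SNORA73B: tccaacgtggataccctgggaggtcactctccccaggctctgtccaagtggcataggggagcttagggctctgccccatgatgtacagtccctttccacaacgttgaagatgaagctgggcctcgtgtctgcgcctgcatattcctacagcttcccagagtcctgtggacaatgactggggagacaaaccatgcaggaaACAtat
SNORD99: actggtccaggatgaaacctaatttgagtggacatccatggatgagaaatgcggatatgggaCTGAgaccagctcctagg

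Quizartinib in RPMI divided the 10 hosts into 5 that fell by more than 2-fold and 5 that moved less. SNHG15, SNHG16, SNHG3, SNHG1 and SNHG12 fell to between 17.7% and 43.3% of vehicle, GAS5 and SNHG8 fell to 79.3% and 84.0%, SNHG6 rose to 126.4%, SNHG7 rose to 113% and SNHG5 stood at 96.6% with no call. In all 7 hosts fell and 2 rose, where 79.3% of all genes tested were called in either direction, 39.2% as lower and 40.1% as higher. With no filter on low counts the split became 8 lower and 1 higher. A called change of 2-fold or more in either direction was seen in 5 of the 10 hosts and in 21.4% of all genes. The median log2 fold change of the hosts was −0.77 against 0.025 over all genes tested. Treated and vehicle libraries did not overlap for 9 of the 10 hosts, against 81.1% of all genes. Summed over the 10 hosts, the vehicle libraries held 1213 ± 25.8 CPM and the quizartinib libraries 718 ± 11.3 CPM (SD, n = 3 each).

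**Figure D1:**
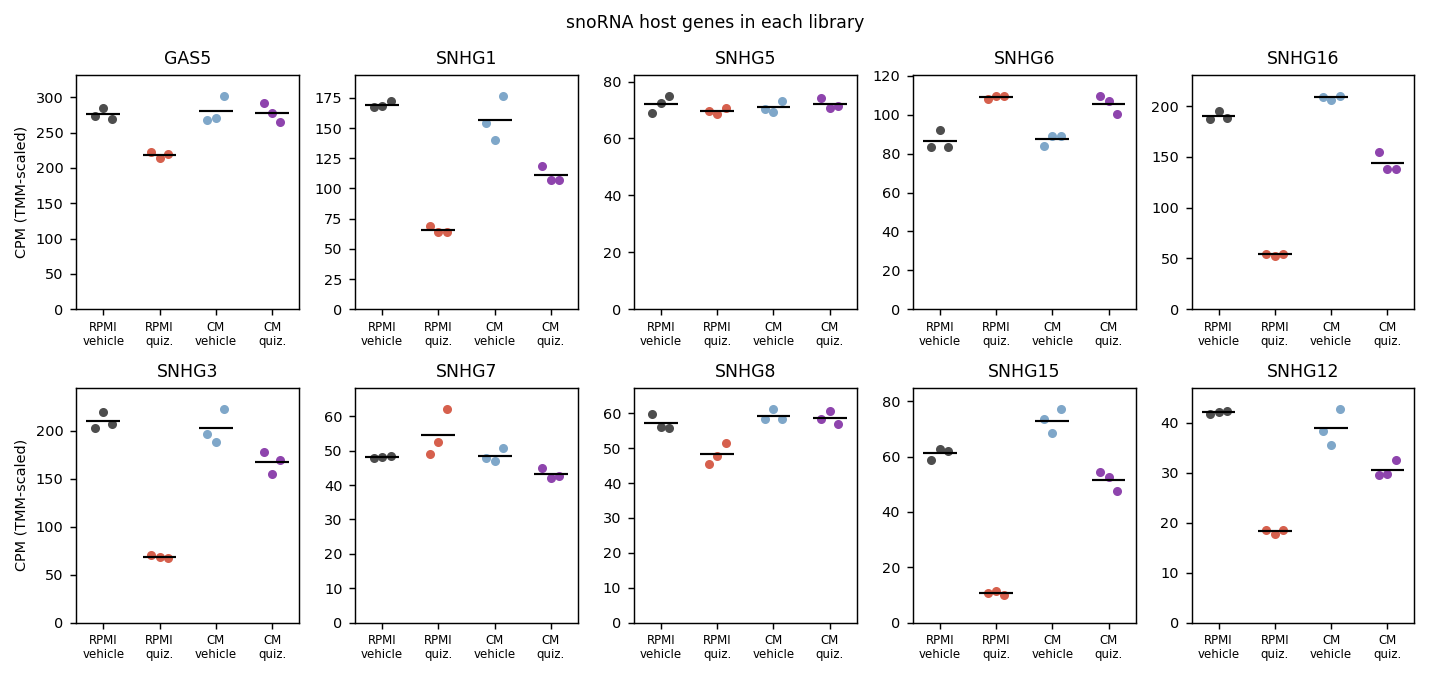
TMM-scaled CPM of each host gene (vertical axes start at 0 and differ between panels) in each of the 12 libraries, with points for libraries and a line for the group mean. SNHG15 stands at 10.1 to 11.5 CPM with quizartinib in RPMI and at 47.7 CPM or more in every other library, while SNHG5 stays between 68.5 and 75.0 CPM throughout.

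Among the hosts that hold mainly box C/D snoRNAs, GAS5 (ENSG00000234741, chr1:173858559-173868882, minus strand), with 10 of box C/D and 1 of box H/ACA, was measured at 274, 284 and 269.7 CPM with vehicle in RPMI and at 223, 214 and 220 CPM with quizartinib. In hBMSC-CM it was at 268, 270.2 and 302 CPM with vehicle and at 292, 277 and 265 CPM with quizartinib. The 3 quizartinib libraries in RPMI were thus the lowest of the 12, and the other 3 groups overlapped. The log2 fold change in RPMI was −0.33 (SE 0.05, adjusted p = 2.34e-06, edgeR), and in hBMSC-CM it was −0.01 with a 95% interval of −0.12 to 0.10.

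SNHG1 (ENSG00000255717, chr11:62851978-62855953, minus strand), which holds the SNORD22 and SNORD25 to SNORD31 cluster, had 167, 168.5 and 173 CPM with vehicle in RPMI and 69.1, 63.7 and 63.8 CPM with quizartinib. In hBMSC-CM it had 154, 140 and 177 CPM with vehicle and 118.5, 107 and 107 CPM with quizartinib. The treated libraries lay below the vehicle libraries in both media without overlap, and lowest in RPMI. The log2 fold change was −1.37 (SE 0.07, adjusted p = 3.60e-14) in RPMI and −0.50 (SE 0.06, adjusted p = 6.07e-07) in hBMSC-CM.

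SNHG16 (ENSG00000163597, chr17:76557727-76670985, plus strand), the host of the SNORD1 snoRNAs, had 187.5, 196 and 188 CPM with vehicle in RPMI and 54.6, 52.5 and 54.8 CPM with quizartinib. In hBMSC-CM the libraries read 209, 206 and 210.1 CPM with vehicle and 155, 138 and 138 CPM with quizartinib. All 4 groups were separate from each other, in the order quizartinib in RPMI, quizartinib in hBMSC-CM, vehicle in RPMI and vehicle in hBMSC-CM. Quizartinib changed SNHG16 by −1.82 (SE 0.05, adjusted p = 2.10e-18) in RPMI and by −0.54 (SE 0.05, adjusted p = 1.58e-09) in hBMSC-CM on the log2 scale.

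SNHG5 (ENSG00000203875, chr6:85650491-85678932, minus strand), which holds SNORD50A and SNORD50B, was the flattest host. It had 68.9, 72.5 and 75.0 CPM with vehicle and 69.7, 68.5 and 70.7 CPM with quizartinib in RPMI, and 70.5, 69.4 and 73.1 CPM with vehicle and 74.3, 70.6 and 71.6 CPM with quizartinib in hBMSC-CM. Its groups overlapped in each comparison. The log2 fold change was −0.05 in RPMI (95% interval −0.15 to 0.05, adjusted p = 0.304) and 0.02 in hBMSC-CM (95% interval −0.08 to 0.13). It was called lower in RPMI with no filter on low counts (−0.15) and higher in hBMSC-CM with library size scaling (0.13), so a small change in SNHG5 cannot be given a direction. A share of 60.7% of the canonical exons of SNHG5 also belongs to another gene of GENCODE on the same strand.

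SNHG6 (ENSG00000245910, minus strand of chromosome 8), the host of SNORD87, was the host that rose in both media. It had 83.6, 92.1 and 83.2 CPM with vehicle and 108, 109.7 and 109.4 CPM with quizartinib in RPMI. In hBMSC-CM it had 84.0, 88.9 and 89.1 CPM with vehicle and 109.4, 107 and 100.2 CPM with quizartinib. Every treated library exceeded every vehicle library, by log2 fold changes of 0.34 (SE 0.05, adjusted p = 1.32e-06) in RPMI and 0.28 (SE 0.05, adjusted p = 3.25e-05) in hBMSC-CM. Exons annotated on the opposite strand cover 81.7% of the canonical exons of SNHG6. MCMDC2, which overlaps SNHG6 on that strand, was measured at 0.08 CPM with vehicle in RPMI.

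Among the box H/ACA hosts, SNHG3 (ENSG00000242125, chr1:28505980-28510892, plus strand), which holds both copies of SNORA73 (U17), had 203, 219.5 and 207 CPM with vehicle and 71.0, 68.2 and 67.2 CPM with quizartinib in RPMI. In hBMSC-CM it had 197, 188 and 223 CPM with vehicle and 177, 155 and 169.9 CPM with quizartinib. The fall was clear of the spread between replicates in both media. Log2 fold changes were −1.61 (SE 0.06, adjusted p = 5.85e-16) in RPMI and −0.27 (SE 0.06, adjusted p = 0.000278) in hBMSC-CM.

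SNHG15 (ENSG00000232956, chr7:44983019-44986961, minus strand), the host of SNORA9 and known as a short-lived transcript that responds to stress, changed most with quizartinib in RPMI. It had 58.6, 62.8 and 62.1 CPM with vehicle and 10.6, 11.5 and 10.1 CPM with quizartinib in RPMI, and 73.5, 68.3 and 77.1 CPM with vehicle and 54.5, 52.5 and 47.7 CPM with quizartinib in hBMSC-CM. No 2 groups overlapped. The log2 fold change in RPMI was −2.50 (SE 0.07, adjusted p = 4.94e-18), below which lay 1.16% of all genes tested, and in hBMSC-CM it was −0.50 (SE 0.06, adjusted p = 1.99e-07).

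SNHG7 (ENSG00000233016, chr9:136721366-136728184, minus strand), the host of SNORA17A and SNORA17B, moved in opposite directions in the 2 media. In RPMI it had 47.8, 48.2 and 48.6 CPM with vehicle and 49.2, 52.5 and 62.1 CPM with quizartinib, and in hBMSC-CM 47.9, 47.1 and 50.7 CPM with vehicle and 44.9, 42.0 and 42.7 CPM with quizartinib. The treated libraries lay above all vehicle libraries in RPMI, most of all replicate 3, and below them in hBMSC-CM. The log2 fold change was 0.18 (SE 0.07, adjusted p = 0.0176) in RPMI and −0.17 (SE 0.07, adjusted p = 0.0316) in hBMSC-CM. The call in RPMI was lost without replicate 3 of quizartinib in RPMI (0.08, adjusted p = 0.175), with no filter on low counts (0.07) and with edgeR's filterByExpr (0.12), and the call in hBMSC-CM was lost without replicate 3 of vehicle (−0.13), replicate 2 of quizartinib (−0.14) or replicate 3 of quizartinib (−0.16) in that medium.

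SNHG8 (ENSG00000269893, chr4:118278703-118285316, plus strand), the host of SNORA24, had 59.98, 56.2 and 55.7 CPM with vehicle and 45.6, 47.8 and 51.5 CPM with quizartinib in RPMI. In hBMSC-CM it had 58.4, 61.2 and 58.3 CPM with vehicle and 58.5, 60.8 and 57.0 CPM with quizartinib. As for GAS5, the treated libraries in RPMI were the lowest and the other groups overlapped. The log2 fold change was −0.25 (SE 0.05, adjusted p = 0.000174) in RPMI and −0.01 in hBMSC-CM (95% interval −0.13 to 0.11).

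SNHG12 (ENSG00000197989, chr1:28578538-28583132, minus strand), like GAS5, hosts both kinds, SNORD99 of box C/D and SNORA16A, SNORA44 and SNORA61 of box H/ACA. It had 41.9, 42.1 and 42.4 CPM with vehicle and 18.5, 17.7 and 18.6 CPM with quizartinib in RPMI, and 38.4, 35.6 and 42.8 CPM with vehicle and 29.5, 29.8 and 32.5 CPM with quizartinib in hBMSC-CM. Treated and vehicle libraries did not overlap in either medium. Log2 fold changes were −1.21 (SE 0.07, adjusted p = 3.58e-13) and −0.35 (SE 0.06, adjusted p = 5.78e-05). The hosts that fell by over 2-fold thus held snoRNAs of either kind.

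In hBMSC-CM quizartinib lowered 6 hosts and raised SNHG6, where 67.1% of all genes tested were called, 33.7% as lower and 33.4% as higher, and no host changed by 2-fold, as 6.89% of all genes did. GAS5, SNHG5 and SNHG8 were not called. With upper-quartile or library size scaling the split became 5 lower and 2 higher, with SNHG7 no longer called and SNHG5 called higher. Treated and vehicle libraries in hBMSC-CM did not overlap for 7 of the 10 hosts, against 68.4% of all genes. The levels left with quizartinib in hBMSC-CM were 69.0% of vehicle for SNHG16, 70.7% for SNHG1, 70.8% for SNHG15, 78.5% for SNHG12 and 82.7% for SNHG3. SNHG15 and SNHG1, which had fallen to 17.7% and 38.7% in RPMI, thus stood at nearly the same share here, a likeness that was not tested.

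**Figure D2:**
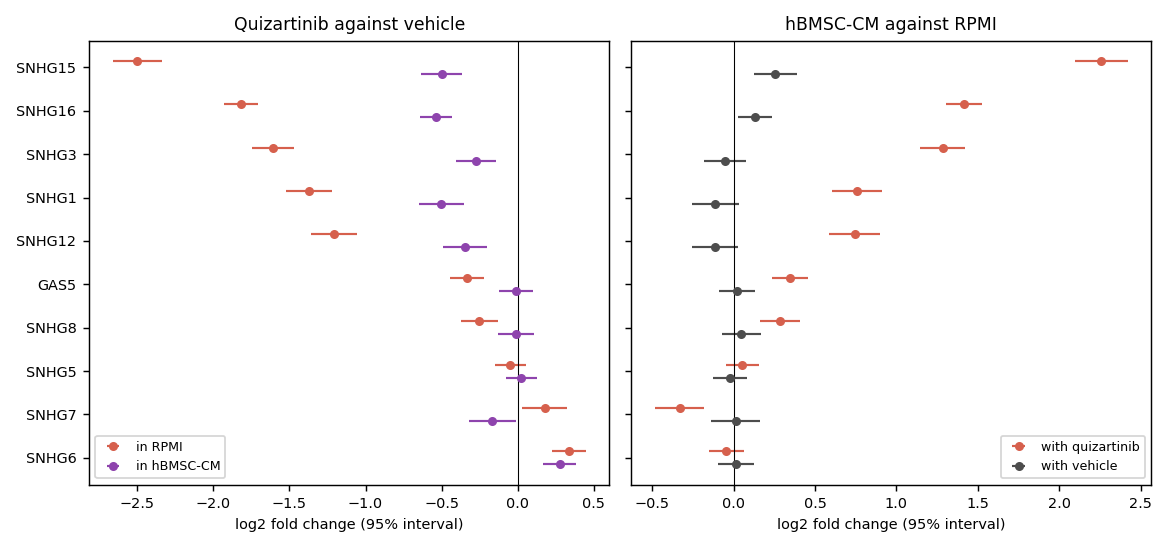
Log2 fold changes of the 10 hosts with 95% intervals (points and bars), for quizartinib against vehicle in each medium (left) and for hBMSC-CM against RPMI with each treatment (right). SNHG15, SNHG16, SNHG3, SNHG1 and SNHG12 lie at −1.21 or below with quizartinib in RPMI and between −0.54 and −0.27 in hBMSC-CM.

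The media were then compared with quizartinib present, which uses the same treated RPMI libraries as the first comparison. hBMSC-CM raised 7 hosts and lowered 1, SNHG7, where 69.8% of all genes tested were called, 35.5% as higher and 34.3% as lower. SNHG15 was higher by 2.26 on the log2 scale (SE 0.07, adjusted p = 1.20e-16), a 4.78-fold difference, SNHG16 by 1.42 (2.67-fold) and SNHG3 by 1.28 (2.43-fold). SNHG1 was higher by 0.76, SNHG12 by 0.74, GAS5 by 0.35 and SNHG8 by 0.29. SNHG7 differed by −0.33 (SE 0.07, adjusted p = 0.000142). SNHG5 (0.05, 95% interval −0.05 to 0.16) and SNHG6 (−0.05, 95% interval −0.15 to 0.06) were not called. Between the treated groups 8 of 10 hosts did not overlap, against 71.5% of all genes.

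With vehicle the 2 media differed little in these genes. SNHG15 was higher in hBMSC-CM by 0.26 (SE 0.06, adjusted p = 0.00174) and SNHG16 by 0.13 (SE 0.04, adjusted p = 0.0302), and the other 8 hosts were not called, where 32.1% of all genes tested were, 16.6% as higher and 15.5% as lower. The call of SNHG16 was lost with upper-quartile (0.10) or library size scaling (0.11) and without any of replicates 1 and 3 of vehicle in RPMI or replicates 1, 2 and 3 of vehicle in hBMSC-CM, with values from 0.12 to 0.14. Replicate 3 of vehicle in hBMSC-CM was the highest of its group for every host but SNHG8. Without it SNHG1 (−0.20, adjusted p = 0.0059) and SNHG12 (−0.19, adjusted p = 0.0231) were called lower in hBMSC-CM.

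The difference between the effects of quizartinib in the 2 media was tested by the interaction term and was called for 8 hosts, 7 higher and 1 lower, where 45.2% of all genes tested were called, 26.1% as higher and 19.2% as lower. On the log2 scale it was 2.00 (SE 0.09, adjusted p = 3.09e-13) for SNHG15, 1.34 for SNHG3, 1.28 for SNHG16, 0.87 for SNHG1, 0.86 for SNHG12, 0.33 for GAS5 and 0.24 for SNHG8. SNHG7 had −0.34 (SE 0.09, adjusted p = 0.00481). For SNHG5 (0.07, 95% interval −0.07 to 0.22) and SNHG6 (−0.06, 95% interval −0.22 to 0.09) no difference between the media was called.

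Cells treated in hBMSC-CM were also set against vehicle in RPMI, which shares its control libraries with the first comparison. SNHG1 (65.4% of vehicle in RPMI), SNHG12 (72.5%), SNHG16 (75.5%), SNHG3 (79.8%), SNHG15 (84.5%) and SNHG7 (89.8%) were lower, and SNHG6 was higher (122.4%), where 62.1% of all genes tested were called, 31.6% as lower and 30.6% as higher. The call of SNHG7 (adjusted p = 0.0468) was lost when any of 8 libraries was left out. With library size scaling it was lost as well and SNHG8 was called higher, giving 5 lower and 2 higher. GAS5 (100.8%), SNHG5 (100.2%) and SNHG8 (102.4%) stood at the level of vehicle in RPMI within intervals of −0.10 to 0.12, −0.10 to 0.10 and −0.08 to 0.15 on the log2 scale. The order of the hosts by loss was therefore not that seen in RPMI, where SNHG15 stood lowest.

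Few of the snoRNAs themselves were measured. Of the 36 snoRNA genes within the hosts 21 had a row in the table, 17 of these had no count in any library, 4 had at least 1 and 2 passed the filter. At these depths an absence of counts leaves room for a level of 0.0951 to 0.150 CPM (3 counts), and poly-A selection does not capture mature snoRNAs as it does messenger RNA. Those that passed were SNORA73B and SNORD99, whose sequences stand above.

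SNORA73B, within an intron of SNHG3, had 392, 319 and 278 CPM with vehicle and 361, 395 and 432 CPM with quizartinib in RPMI. In hBMSC-CM it had 363, 383 and 408 CPM with vehicle and 424, 472 and 459.6 CPM with quizartinib. The RPMI groups overlapped and the hBMSC-CM groups did not. Its log2 fold change was 0.26 (SE 0.09, adjusted p = 0.0087) in RPMI and 0.23 (SE 0.09, adjusted p = 0.0223) in hBMSC-CM, while SNHG3 changed by −1.61 and −0.27. By the Wald test of DESeq2 SNORA73B was called in neither medium. SNORD99, within an intron of SNHG12, had 42 to 63 counts per library with vehicle and 4 to 9 with quizartinib in RPMI, that is 2.15, 2.11 and 1.94 CPM and 0.16, 0.21 and 0.44 CPM. In hBMSC-CM it had 1.75, 2.55 and 2.23 CPM with vehicle and 1.12, 0.88 and 0.56 CPM with quizartinib. It fell with its host, by log2 fold changes of −3.01 (SE 0.31, adjusted p = 1.28e-08) and −1.27 (SE 0.24, adjusted p = 8.05e-05) where SNHG12 changed by −1.21 and −0.35.

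**Figure D3:**
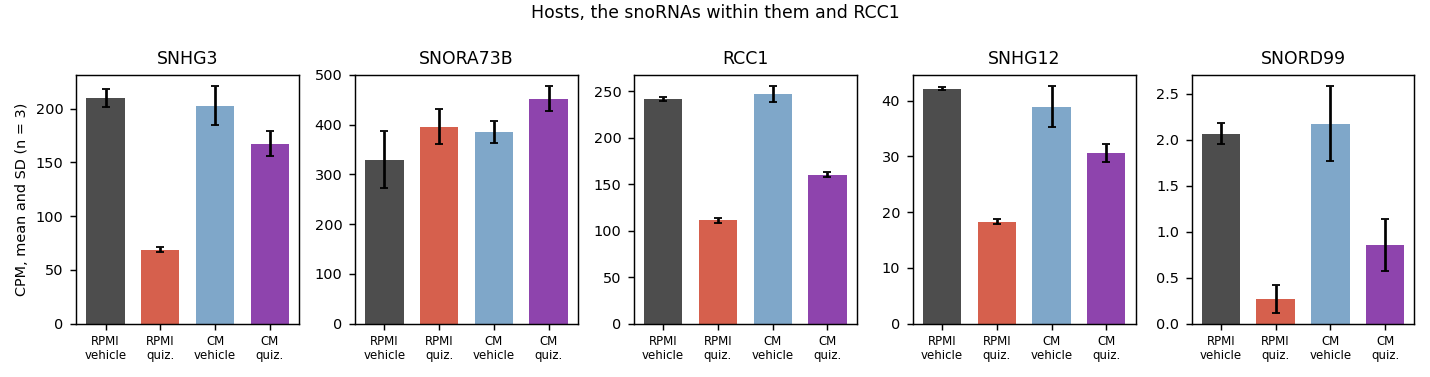
Mean CPM (bars from 0) with SD over 3 libraries for SNHG3, SNORA73B within its intron, RCC1 that overlaps it, SNHG12 and SNORD99 within its intron. SNHG3, RCC1, SNHG12 and SNORD99 are lowest with quizartinib in RPMI, and SNORA73B is lowest with vehicle in RPMI at 329.6 CPM.

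Genes that overlap or adjoin a host shared its direction in some cases. SLC3A2, the heavy chain of amino acid transporters, starts 51 bases from SNHG1 on the opposite strand and had 176 ± 2.06, 56.2 ± 3.53, 215 ± 4.83 and 102 ± 2.40 CPM (SD, n = 3) with vehicle in RPMI, quizartinib in RPMI, vehicle in hBMSC-CM and quizartinib in hBMSC-CM, a log2 fold change with quizartinib of −1.65 in RPMI and −1.08 in hBMSC-CM. RCC1, the exchange factor of the GTPase Ran, lies on the strand of SNHG3 with a start 37 bases away, and 11% of the canonical exons of SNHG3 are shared with a gene on that strand. RCC1 changed by −1.12 in RPMI and −0.62 in hBMSC-CM, a smaller fall than that of SNHG3 in RPMI and a larger one in hBMSC-CM, a difference that was not tested. On the strand opposite to GAS5, ZBTB37 changed by 0.39 in RPMI. TRNAU1AP, opposite to SNHG12, changed by 0.19. Opposite to SNHG7, DIPK1B had 1.09 CPM with vehicle in RPMI, and opposite to SNHG8, PRSS12 had 0. The sources do not state whether strand was used in counting, so reads of a host and of a gene opposite to it may not be separable.

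Other hosts were read from lists. Of 15 tested noncoding hosts outside the 10, quizartinib in RPMI lowered 8 and raised 2, with a median log2 fold change of −0.32. These are 53.3% and 13.3% of the list, where 39.2% of all genes tested were called lower and 40.1% higher. SNHG26 (−1.52), SNHG17 (−1.41) and SNHG4 (−1.40) fell most, and SNHG14 (0.28) and SNHG29 (0.23) rose. The counts became 6 lower and 4 higher with upper-quartile scaling and 6 lower and 3 higher with library size scaling. In hBMSC-CM 5 of them fell and 2 rose, a split that turned to 3 falling and 5 rising with either scaling. There 33.7% of all genes tested were called lower and 33.4% higher. Among treated cells hBMSC-CM raised 9 and lowered 1, SNHG29 (−0.15), where 35.5% of all genes tested were called higher and 34.3% lower.

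Protein-coding hosts were read as 2 lists. Of 23 ribosomal protein genes that host snoRNAs, quizartinib in RPMI raised 21 and lowered 1, where 40.1% and 39.2% of all genes were called. The median log2 fold change was 0.22, and RPS20 (0.37) and RPL13A (0.34) rose most. The exception was RPL17 (−1.49), at 21.0 CPM with vehicle in RPMI, where the next lowest of the list, RPS13, had 525.5 CPM. The reason for the low level of RPL17 was not tested. The 21 became 15 with no filter on low counts and 22 with upper-quartile or library size scaling. In hBMSC-CM 8 rose, 1 fell and 14 were not called, and the 8 became 18 and 19 with these 2 scalings. The 8 are 34.8% of the list, near the 33.4% of all genes tested that were called higher. Of 25 other protein-coding hosts, quizartinib in RPMI lowered 19 and raised 3, with a median of −1.11. These are 76% and 12% of the list, where 39.2% and 40.1% of all genes were called. NOP56, a core protein of box C/D particles, changed by −2.21, WDR43, a factor of the small ribosomal subunit, by −2.21 and DKC1, the pseudouridine synthase of box H/ACA particles, by −2.12. The 3 that rose were RNF149 (0.56), the elongation factor EEF2 (0.46) and TPT1 (0.14), of which the last 2 are classical TOP genes. The 3 became 2 with no filter or filterByExpr and 5 with upper-quartile or library size scaling. In hBMSC-CM 18 of the 25 fell and 4 rose, with a median of −0.37, where 33.7% and 33.4% of all genes were called.

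**Figure D4:**
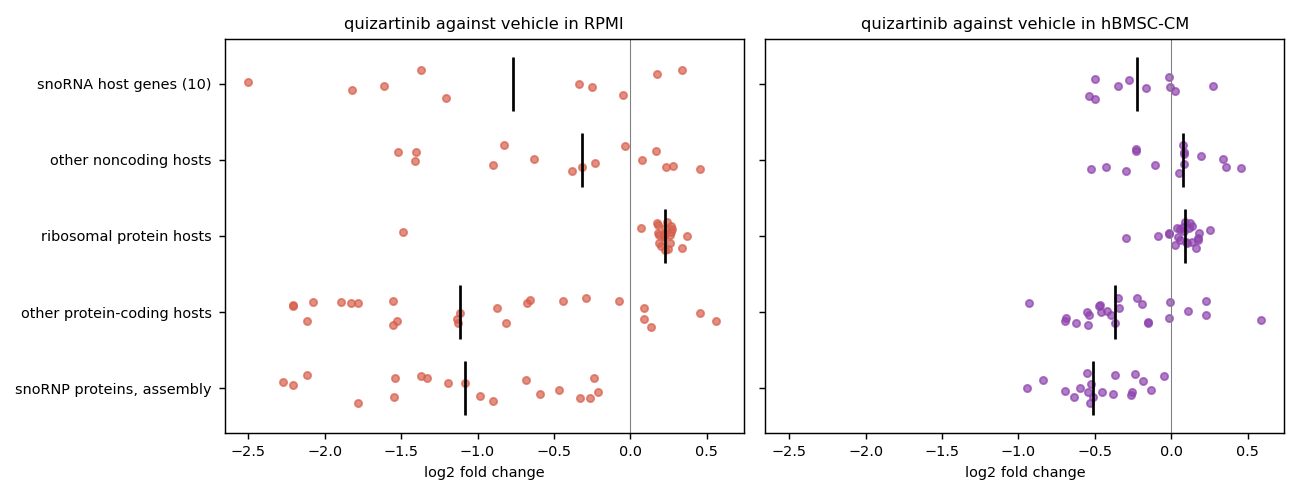
Log2 fold change with quizartinib in RPMI (left) and in hBMSC-CM (right) of every tested gene in each list (points, spread vertically for legibility), with the list's median as a bar. In RPMI the ribosomal protein hosts cluster around 0.22 apart from RPL17, while the other protein-coding hosts and the snoRNP proteins have medians of −1.11 and −1.08.

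Transcripts of the proteins that bind and assemble snoRNAs were all lower with quizartinib in RPMI. Of 19 tested genes for snoRNP (snoRNA and protein particle) proteins and assembly factors, 3 of which are also in the list of protein-coding hosts, quizartinib in RPMI lowered 19, with a median log2 fold change of −1.08, and 18 with upper-quartile or library size scaling. Over all genes tested 39.2% were called lower. NOLC1, which chaperones snoRNPs in the nucleolus, changed by −2.27. In hBMSC-CM 18 fell, with a median of −0.51, and 16 with either scaling, where 33.7% of all genes tested were called lower. Among treated cells hBMSC-CM raised 17 of the 19, NOLC1 by 2.04, where 35.5% of all genes tested were called higher. Of 17 factors of nonsense-mediated decay, quizartinib in RPMI lowered 9 and raised 5, where 79.3% of all genes tested were called, and with no filter on low counts the split became 11 lower and 3 higher. MAGOHB (−1.33), DHX34 (−1.17) and EIF4A3 (−0.92) fell most, and NBAS (0.79), UPF3A (0.34) and SMG6 (0.25) rose most. UPF1, the helicase of the pathway, changed by −0.19 (adjusted p = 0.000148). In hBMSC-CM 10 fell and 2 rose, where 67.1% of all genes were called, and library size scaling gave 8 lower and 4 higher.

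Of 10 regulators of MYC activity and of TOP transcripts, quizartinib in RPMI lowered 7 and raised 2, where 39.2% of all genes tested were called lower and 40.1% higher. The transcription factor gene MYC changed by −3.09 in RPMI and −0.40 in hBMSC-CM. EIF4EBP1, which restrains cap-dependent translation, changed by −1.999, and LARP1, which binds TOP transcripts, by −1.26 in RPMI and −0.36 in hBMSC-CM. Among the MYC antagonists on the list, MXD4 (2.25) and MXD1 (0.86) rose in RPMI and MNT fell (−0.33). MYC was higher in cells treated in hBMSC-CM than in vehicle cells in RPMI, by 0.47 (adjusted p = 1.16e-08), where of the 10 hosts SNHG6 was higher and 6 were lower. The part of these changes in those of the hosts was not tested.

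Promoter sequences of RefSeq (hg38, 250 bases before to 50 after the start) were at hand for 8 of the 10 hosts, not for SNHG6 or SNHG15. The E-box CACGTG, a MYC and MAX recognition sequence, its variant CACGCG, the TATA sequences TATAAA and TATATAA, and a run of at least 6 C or T within 20 bases of the start were searched, the first 4 on both strands. CACGTG and CACGCG differ in 1 letter and a match cannot be both at 1 position. CACGCG was found in SNHG1, SNHG3, SNHG12 and SNHG16 and in 11.4% of all 35116 promoters, and these 4 are the hosts with an entry that fell by over 2-fold in RPMI. CACGTG was found in SNHG7 and in 7.26% of promoters. A CACGCG match is a description of these windows, not a binding site, and its relation to the falls was not tested. Counted from the RefSeq start, the matches begin at 20 in SNHG16, 27 in SNHG3, −84 in SNHG1 and −150 and −73 in SNHG12. Those of SNHG16 and SNHG3 thus lie after the RefSeq start. The side depends on the annotation. The GENCODE start of SNHG3 lies 37 bases further on, and the match of SNHG3 lies before it. The GENCODE start of SNHG12 lies 1259 bases further back, and both matches of SNHG12 lie after it. Windows of 40 bases on the strand of the gene are given, with the match in capitals (CGCGTG where it lies on the other strand), for SNHG16 (chr17:76557767-76557806, plus strand), SNHG3 (chr1:28505953-28505992, plus strand), SNHG1 (chr11:62855947-62855986, minus strand) and SNHG12 (chr1:28582001-28582040 and chr1:28581924-28581963, minus strand).
SNHG16: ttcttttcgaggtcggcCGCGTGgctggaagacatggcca
SNHG3: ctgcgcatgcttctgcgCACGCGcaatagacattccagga
SNHG1: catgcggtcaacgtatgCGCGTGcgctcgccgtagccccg
SNHG12 first match: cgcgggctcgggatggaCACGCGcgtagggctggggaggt
SNHG12 second match: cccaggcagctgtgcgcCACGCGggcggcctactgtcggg

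TATAAA was found in SNHG1 and SNHG7 (11.5% of promoters) and TATATAA in SNHG5 and SNHG12 (2.57%). The pyrimidine run, searched on the strand of the gene, was found in 7 of the 8 hosts and in 38.8% of all promoters. It was thus present in hosts that fell strongly and in hosts that did not. In SNHG1 and SNHG7 the run begins at −20 and −14 from the RefSeq start, so a run is not in itself a TOP motif. GAS5 was the host without it, where the RefSeq start lies 163 bases from that of GENCODE. The 40 bases around the RefSeq start are given with the longest run in capitals for SNHG5 (chr6:85678714-85678753, minus strand) and SNHG8 (chr4:118278742-118278781, plus strand), which changed little, and for SNHG12 (chr1:28581854-28581893, minus strand) and SNHG16 (chr17:76557744-76557783, plus strand), which fell. The RefSeq start lies 1259 bases from that of GENCODE for SNHG12, 199 for SNHG5, 59 for SNHG8 and 37 for SNHG16. All 4 distances exceed the 20 bases searched on each side.
SNHG5 start: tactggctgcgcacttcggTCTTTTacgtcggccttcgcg
SNHG8 start: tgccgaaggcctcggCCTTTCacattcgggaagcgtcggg
SNHG12 start: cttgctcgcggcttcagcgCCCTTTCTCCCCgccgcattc
SNHG16 start: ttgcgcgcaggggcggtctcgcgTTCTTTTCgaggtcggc

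Levels were compared between hosts per kilobase of annotated exon (RPKM). With vehicle in RPMI GAS5 was highest at 55.9 ± 1.53 (SD, n = 3), followed by SNHG3 at 51.4 ± 2.10, SNHG1 at 42.6 ± 0.73, SNHG6 at 34.1 ± 2.00, SNHG16 at 33.0 ± 0.78, SNHG15 at 15.5 ± 0.56, SNHG12 at 9.88 ± 0.07, SNHG7 at 9.84 ± 0.08, SNHG8 at 8.67 ± 0.35 and SNHG5 at 5.72 ± 0.24. SNHG6 and SNHG16, and SNHG12 and SNHG7, differed by less than their spread. With quizartinib in RPMI SNHG6 (43.2 ± 0.31) stood beside GAS5 (44.4 ± 0.93), and SNHG15 was lowest at 2.73 ± 0.18. The order rests on the length used, since by the length of the canonical transcript, an alternative chosen after seeing the data, SNHG16 came first (382) before GAS5 (359).

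Over the 12 libraries the log2 CPM of the 5 hosts that fell by over 2-fold had Pearson's r of 0.937 to 0.991 over their 10 pairs. These 5 were picked by their fall in the same libraries, so a high r among them follows from that choice. SNHG6 had r of −0.858 to −0.71 with these 5. GAS5, which is not among them, had r from 0.877 (SNHG1) to 0.944 (SNHG3) with the 5, and SNHG8 from 0.764 (SNHG1) to 0.897 (SNHG15). Among 9278 other genes that averaged 10 CPM or more, the one most like each host was NETO2 for SNHG16 (r = 0.999), CACNA2D4 for SNHG15 (0.998), HES6 for SNHG3 (0.996), DDX11 for SNHG1 (0.993), ARHGAP4 for SNHG12 (0.993), TENT2 for SNHG6 (0.978), SUB1 for GAS5 (0.973), CSTF2T for SNHG8 (0.96), MAF1 for SNHG7 (0.93) and UBXN8 for SNHG5 (0.773). The 12 points are the same libraries in each case and share the 4 groups of the design.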

How the data were processed

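RNA of 12 samples, 3 in each of 4 groups, was sequenced by the authors as paired-end poly-A-selected libraries. They trimmed reads with BBDuk, removed short reads, aligned to hg38 and counted genes with STAR 2.6.0a, and summed identifiers that share a name. The deposited values are raw counts per gene name. Multi-mapped and ambiguous reads and the use of strand are not described further in the sources used here. The 12998 genes that averaged 1 raw count and 1 CPM or more were tested here with edgeR 4.0.16 (quasi-likelihood test, TMM scaling, 4 group means over 12 libraries, two-sided, Benjamini-Hochberg adjusted p under 0.05 over all genes tested). "Called" means past that threshold, and all adjusted p-values are from this test unless another is named. The 6 comparisons were the drug effect in either medium, the medium effect with either treatment, their interaction, and treated hBMSC-CM against vehicle RPMI. Total counts of 19966546 to 31546104 give a floor (3 counts) of 0.0951 to 0.150 CPM, which covers counting error only. Each SE is the size of the log2 fold change divided by the square root of the test's F. The 95% intervals use this SE and a t distribution with 8 residual degrees of freedom. The test itself uses other degrees of freedom, so an interval need not match its p-value. Log2 CPM for correlations used a prior count of 2. The fit was tested on simulated counts with known changes. Alternatives were DESeq2 1.42.0, limma 3.58.1 (voom and trend), other scalings and filters, a replicate block and leaving out each library.

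Members and lists were chosen with earlier results of these data known. Of each list the counts and up to 3 genes of largest change per direction are named. UPF1, TPT1, MNT and the marker genes are named besides. Exons and neighbouring genes are from GENCODE on hg38, and snoRNAs and promoters from RefSeq on the same build. Every pair of libraries in a group differed by more than sampling noise. One neighbouring gene is not reported here.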

Additional observations from a re-analysis of the deposited data

Results flagged for a closer look

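The effect of quizartinib differed between RPMI and hBMSC-CM, by the test of the interaction term in edgeR, for 8 of the 10 hosts. On the log2 scale the difference was 2.00 for SNHG15, 1.34 for SNHG3, 1.28 for SNHG16, 0.87 for SNHG1, 0.86 for SNHG12, 0.33 for GAS5 and 0.24 for SNHG8, each a smaller fall in hBMSC-CM. For SNHG7 it was −0.34, a rise in RPMI and a fall in hBMSC-CM. All 8 were called in each of the 12 fits that left out a library. Of all genes tested, 45.2% were called for this term. Groups of 3 are too small for the test of outlying samples used here.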

How the results depend on the processing

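For SNHG1, SNHG3, SNHG12, SNHG15 and SNHG16, all 545 alternative values outside the comparison of media with vehicle kept their direction and call. Over all hosts and comparisons, 1242 of 1310 alternative values did, 25 lost a call (18 of SNHG7 and 7 of SNHG16), 7 gained one and 36 reversed, none of these beyond 0.0957 in size and none called. The number of hosts called between media with vehicle went from 2 to 1 with upper-quartile or library size scaling and ranged from 1 to 3 when a library was left out, the only such count that moved by over 1.5 times.

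Reversed log2 fold changes follow. Upper-quartile scaling gave 0.051 for SNHG5 with quizartinib in RPMI, 0.074 for GAS5 and 0.070 for SNHG8 in hBMSC-CM, and −0.0066 for GAS5, −0.012 for SNHG6 and −0.015 for SNHG7 between media with vehicle. Library size scaling gave 0.039 for SNHG5 in RPMI, 0.096 for GAS5 and 0.092 for SNHG8 in hBMSC-CM, and −0.0022 for SNHG6 and −0.0055 for SNHG7 between media with vehicle. With no filter SNHG5 had −0.0069 in hBMSC-CM, SNHG6 0.031 between media with quizartinib and 0.011 in the interaction, and treated hBMSC-CM against vehicle RPMI had −0.013 for GAS5 and −0.023 for SNHG5. In that comparison edgeR's filterByExpr gave −0.0039 for GAS5 and −0.013 for SNHG5, and DESeq2 gave −0.0065 for SNHG5 by its size factors and −0.0061 by its Wald test. Fitting only the groups compared gave 0.0041 for GAS5 and 0.00011 for SNHG8 in hBMSC-CM. With a library left out, GAS5 ranged from −0.046 to 0.051 and SNHG8 from −0.034 to 0.0097 in hBMSC-CM. Between media with vehicle the ranges were −0.039 to 0.053 for GAS5, −0.054 to 0.0071 for SNHG5, −0.0091 to 0.065 for SNHG6 and −0.021 to 0.032 for SNHG7. For treated hBMSC-CM against vehicle RPMI they were −0.026 to 0.048 for GAS5 and −0.032 to 0.029 for SNHG5. The cause was not tested.

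Upper-quartile scaling moved the median of all genes by 0.102 in RPMI, no filter moved it by −0.103, and library size scaling moved it by 0.104 in hBMSC-CM, so that changes near 0.1 depend on scaling. Replicate numbers gave no sign of pairing (correlation of deviations between same-numbered samples −0.227 to 0.0979 over 18 pairs). Samples with different numbers had −0.152 to 0.231, and the labels do not say whether samples were paired. With the replicate block the hosts called in the 6 comparisons numbered 9, 7, 8, 2, 8 and 7, and no call of a host changed, while the genes called in RPMI went from 10307 to 10224. In levels, library size scaling moved 17 of 40 group means by more than 1 SD.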
